A study of Homo sapiens with 24 samples.

Results

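The probes described here were higher in SH-SY5Y cells whether miR-125b was knocked down or overexpressed. SH-SY5Y is a human neuroblastoma line that takes on neuron-like features under retinoic acid (RA). The rule found 96 such probes among the 20589 on the array, and all 96 passed the filter on dim probes. No table used here pairs the probe IDs with genes, so the probes are named by ID, no gene or pathway is named, and marker genes could not be checked.

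Expression was measured on 24 Illumina arrays in 8 groups of 3, all of the one cell line. Day 2 cells with RA were labelled OE+KD, KD (knockdown), OE (read here as overexpression) or SCR (scrambled control). Day 4 cells without RA were labelled OE or SCR, and so were day 2 cells without RA. The source names write DP where the titles write OE, and for OE+KD they name the knockdown as mir125, without the b. The sources used here give neither the dose of RA nor how the reagents were delivered, and miR-125b itself was not analysed here. The growth protocol attached to the samples is about Sall4 shRNA plasmids and puromycin, which no group label mentions, so what OE, KD and SCR stand for rests on the titles and source names. Nothing in the labels says that the 3 arrays of a group came from separate cultures, so p-values measure only the spread between arrays, which may be technical.

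MicroRNAs are short RNAs that guide a silencing complex to messenger RNAs by pairing through the seed, the bases near their 5′ end. A messenger RNA with a matching site is usually destabilised or translated less. A direct target is therefore generally expected to fall when the microRNA is added and to rise when it is removed, whereas the probes here were chosen for rising in both cases. miR-125b is abundant in the brain and is known for its part in neuronal differentiation. The mature sequences below are from RefSeq (GRCh38.p14), with the seed (bases 2 to 8) in capitals, and are shown because miR-125b is what the study manipulated and because miR-125a shares its seed and its first 13 bases.
hsa-miR-125b-5p: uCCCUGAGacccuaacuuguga
hsa-miR-125a-5p: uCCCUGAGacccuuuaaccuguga
The same miR-125b sequence is encoded by MIR125B1 on the minus strand at chr11:122099809-122099830 and by MIR125B2 on the plus strand at chr21:16590253-16590274. MIR125A lies on the plus strand at chr19:51693268-51693291.

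The probes were chosen by their differences between groups in the intensities normalized by the authors, raised to at least 50, put on a log2 scale and averaged per group. A probe needed a mean of at least 7 in any of the 8 groups, which 9069 probes had. With RA it had to be at least 0.5 higher in KD than in SCR and at least 0.4 higher in OE than in SCR. Without RA its OE minus SCR difference on day 2 had to be under 0.7, and RA had to move it by less than 0.4 in SCR cells. Of the 7657 probes within that RA limit, 299 met the KD threshold, 207 of those the OE threshold, and 96 of those the limit on OE without RA.

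The differences that chose the probes are given as a description only. On the rule's scale KD minus SCR ran from 0.51 to 2.27 with a median of 0.63, and OE minus SCR with RA ran from 0.40 to 1.28 with a median of 0.68. Without RA on day 2, where only an upper limit applied, OE minus SCR ran from -0.17 to 0.69, had a median of 0.51, and was above 0 at 93 of 96 probes. The SCR cells differed little with RA, with a median of -0.07.

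**Figure D1:**
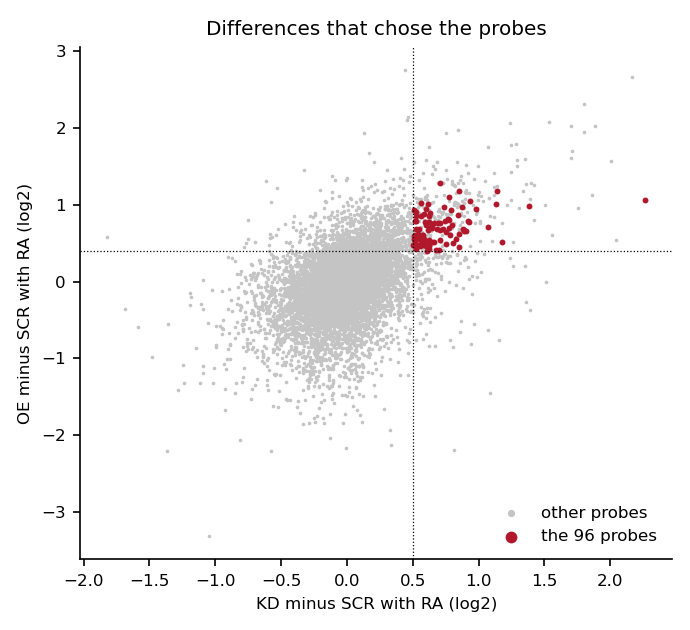
KD minus SCR (horizontal axis) and OE minus SCR (vertical axis), both with RA on day 2 and in log2 units of the authors' normalized intensities, for the 9069 probes with a group mean of at least 7. Red points are the 96 probes, and dotted lines mark the thresholds of 0.5 and 0.4. Grey points beyond both thresholds missed the limits on RA or on OE without RA. The red point farthest to the right, at 2.27, is ILMN_16098.

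The thresholds cut through a continuous spread of values. At the KD threshold ILMN_15597 was just inside at 0.505 and ILMN_15933 just outside at 0.4999. At the OE threshold ILMN_19910 was inside at 0.403 and ILMN_7425 outside at 0.396. At the limit on OE without RA, ILMN_18385 was inside at 0.691 and ILMN_22730 outside at 0.702, and at the RA limit ILMN_17210 was inside at -0.39 and ILMN_17610 outside at 0.41. Membership also depended on the normalization. The same rule on the values used below found 87 probes, of which 59 were among the 96.

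The values from here on are log2 intensities made from the scanner table by background correction and quantile normalization. On that scale the 96 probes spanned the range of expression, with means over the 24 arrays from 7.27 to 13.98 and a median of 9.12, against 9.17 for all 10691 probes tested. KD minus SCR had a median of 0.56 and was called at 94 of 96 probes, beside a background of 8.59% of all probes called higher. OE minus SCR with RA had a median of 0.57 and was called at 95 of 96, beside 19.8%. Both counts follow from the rule, and nothing is read from them.

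Relative to each probe's mean over all arrays, the median of the 96 was 0.19, 0.17 and 0.20 on the OE+KD arrays. It was 0.23, 0.21 and 0.24 on the KD arrays and 0.21, 0.31 and 0.22 on the OE arrays with RA. On the SCR arrays with RA it was -0.34 on each. The rule fixed the gap of the KD and OE arrays to the SCR arrays.

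Without RA on day 4 the same median was 0.13, 0.15 and 0.15 on the OE arrays and -0.23, -0.27 and -0.26 on the SCR arrays. Without RA on day 2 it was 0.12, 0.10 and 0.10 on the OE arrays and -0.31, -0.34 and -0.29 on the SCR arrays. The rule also tied the day 2 SCR arrays without RA to those with RA, so of these gaps only those of the day 4 and OE+KD arrays were not set by a difference in the rule. Over all probes tested the same median stayed between -0.01 and 0.02 on every array.

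**Figure D2:**
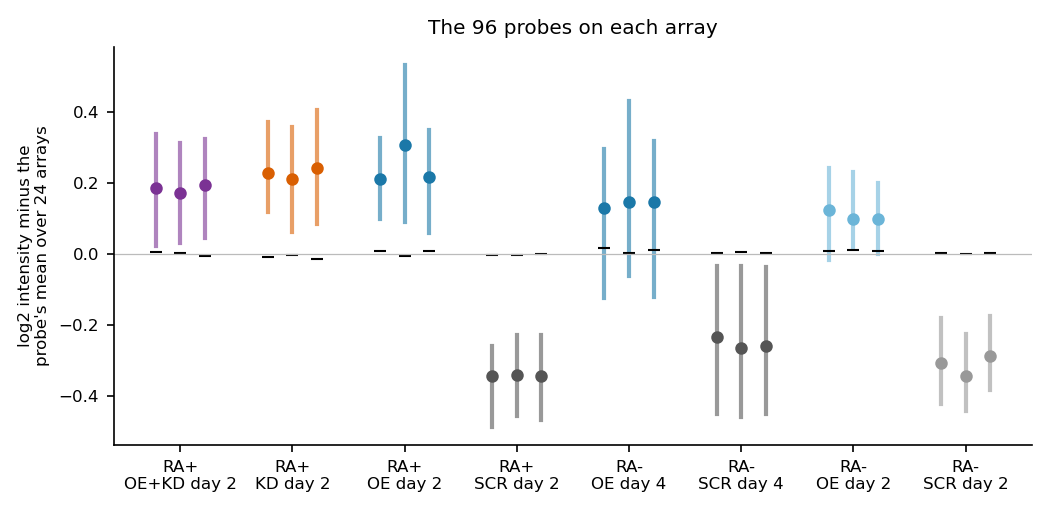
Median over the 96 probes (dots) and their middle 50% (vertical lines) on each of the 24 arrays, as log2 intensity minus the probe's mean over all arrays, by group. Black ticks are the median of all 10691 probes tested. The dots of every OE+KD, KD and OE array lie above 0, and those of every SCR array lie below -0.2.

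No difference between day 4 arrays entered the rule, so OE against SCR on day 4 without RA was the comparison in which the probes could be tested. The series holds no KD arrays from day 4 or without RA, so the test bears on OE only and not on KD. The day 4 means did enter the level step, and ILMN_138914 and ILMN_2560 reached 7 only in OE cells on day 4. The other 94 probes reached 7 in one of the 5 groups whose differences the rule used. Of these 94, OE raised 58 and lowered 4, and 32 did not pass the test (limma, adjusted p under 0.05 over all probes tested). Over all 96 the counts were 60 higher and 4 lower. Of all 10691 probes tested, 26.2% were called higher and 25.3% lower. The median difference was 0.40 log2 over the 94 and 0.41 over the 96, a 1.33-fold change, against 0.01 over all probes. The difference was above 0 at 82 of the 94 probes, and at 65 the 3 OE arrays all lay above the 3 SCR arrays, where 30.4% of all probes did. At 4 of the 94 they all lay below, where 28.7% of all probes did.

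Within each replicate number the median day 4 difference over the 96 was 0.39, 0.40 and 0.38. A scaling by array medians moved the median of all probes to 0.13 log2, and the median of the 96 then was 0.57, with 73 called higher and 2 lower. That scaling made 68.9% of the calls over all probes higher ones, against 50.9% with quantile normalization. How large a share of all probes was called under it is not given, so nothing is read from these 73 and 2. In the authors' deposited table, the day 4 fold change of the 96 had a median of 0.48 log2 and was above 0 at 84 probes.

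**Figure D3:**
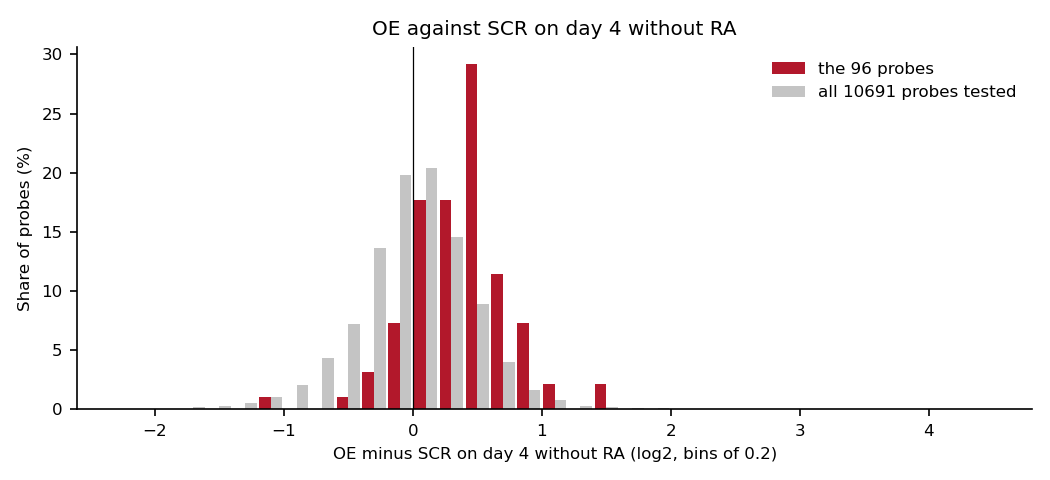
Distribution of OE minus SCR on day 4 without RA (log2, bins of 0.2) for the 96 probes (red) and for all 10691 probes tested (grey), as a percent of each set. The red bars centre on 0.41 and the grey bars on 0.01, and 12 of the 96 probes lie below 0.

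Among the 94 probes, ILMN_25451 had the largest OE minus SCR difference on day 4 on this scale. It stood at 11.63, 11.61 and 11.27 on the OE arrays and at 9.94, 10.00 and 10.00 on the SCR arrays, which did not overlap. The difference was 1.53 log2, a 2.89-fold change, with an SE of 0.115 (limma adjusted p = 8.43e-11). Its day 2 difference without RA was smaller, at 10.91 ± 0.12 in OE and 10.41 ± 0.07 in SCR (SD, n = 3 each).

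ILMN_2560, which its day 4 level admitted to the set, is described without a test. It was at 8.18, 8.08 and 8.16 on the OE arrays and 6.83, 6.60 and 6.48 on the SCR arrays of day 4, a difference of 1.51 log2. In the authors' normalized intensities it was at 169.9, 172.4 and 189.1 in OE and at 30.67, 20 and 20 in SCR, where 20 is the lowest value of the table. The size of the difference depends on the processing: it was 1.82 log2 in the authors' normalized intensities and 3.14 without background correction. With RA on day 2 it was at 7.79 ± 0.07 in OE+KD, 7.77 ± 0.05 in KD, 7.76 ± 0.12 in OE and 7.09 ± 0.04 in SCR (SD, n = 3 each). Without RA on day 2 all 3 OE and all 3 SCR arrays were at or under 50 in the authors' values, the level to which the rule raised low values, so a difference there could not be measured.

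ILMN_28654 fell most on day 4, against its behaviour on day 2. On day 4 it was at 7.68, 7.66 and 8.29 on the OE arrays and 8.91, 9.003 and 9.07 on the SCR arrays, a difference of -1.12 log2 (SE 0.151, limma adjusted p = 1.17e-06). On day 2 without RA it was at 9.22, 9.29 and 9.16 on the OE arrays and 8.78, 8.76 and 8.73 on the SCR arrays. The OE arrays thus lay wholly below their controls on day 4 and wholly above them on day 2.

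ILMN_5056 also fell on day 4, with 8.58, 8.74 and 8.9998 on the OE arrays and 9.07, 9.42 and 9.29 on the SCR arrays. Its difference was -0.49 log2 (SE 0.101, limma adjusted p = 0.000276). The other two probes called lower, ILMN_10404 and ILMN_17049, were named after their values were seen and differed by -0.27 and -0.22 log2 (limma adjusted p = 0.0171 and 0.0416). All 4 had been above SCR in OE cells on day 2 without RA, by 0.30 to 0.52 log2.

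The effect of OE without RA was more varied among the 96 probes on day 4 than on day 2, when the rule capped it. The SD across the 96 was 0.38 log2 on day 4 and 0.18 on day 2, and over all probes tested it was 0.45 and 0.33. The difference was larger on day 4 at 40 probes and smaller at 56, and 16 probes reached 0.7 or more. Among these 40 and these 16 are ILMN_138914 and ILMN_2560, which only their day 4 OE level admitted. Both also enter the SDs, medians and correlation of the 96 given here. The medians were 0.41 on day 4 and 0.43 on day 2. Across the 96 probes the effects of the 2 days, which share no array, correlated with r = 0.258, against 0.718 across all probes tested. The limit at 0.7 narrows the day 2 values, and probes are not replicates.

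The 60 probes called higher on day 4 had a median OE minus SCR of 0.50 log2 on day 2 without RA, against 0.31 for the 32 that were not called. In KD against SCR these 60 and 32 probes had medians of 0.55 and 0.57. Of the 48 brighter probes 35 were called higher and 1 lower on day 4, with a median of 0.41 log2, where 27.3% and 26.3% of all probes in that range of levels were. Of the 48 dimmer ones 25 were called higher and 3 lower, with a median of 0.32 log2, where 25.1% and 24.3% of all such probes were. ILMN_138914 and ILMN_2560, which only their day 4 OE level admitted, are among the 60 and among these 25. Across the 96 probes the level and the day 4 difference correlated with r = 0.058.

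Probes that met only one of the 2 thresholds with RA serve for comparison. Not raised here means under the threshold, not unchanged. With RA, KD minus SCR had a median of 0.13 log2 over the 667 probes below, and OE minus SCR 0.13 over the 92. The 92 probes raised by KD and not by OE, under the same limits on level, over all 8 groups, and RA, had a day 4 median of -0.04 log2, with 24 called higher and 24 lower. The 667 raised by OE and not by KD, with the limit on OE without RA as well, had a day 4 median of 0.49 log2, with 507 called higher and 10 lower. The share called higher was 62.5% among the 96, 26.1% among the 92 and 76.0% among the 667. The 96 include ILMN_138914 and ILMN_2560, which only their day 4 OE level admitted, and without them 58 of 94 were called higher. How many of the 92 and of the 667 were admitted only by their day 4 level is not given. Such probes were not taken out of those sets, and a high day 4 OE level favours a call as higher. The shares are therefore not on the same footing, and nothing is read from the differences between them, which were not tested.

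No difference of the OE+KD arrays entered the rule, and their level admitted no probe that another group did not, but each group they are compared with was used, so these comparisons are described without a test of the 96. OE+KD minus SCR had a median of 0.50 log2 and was above 0 at 95 of 96 probes. At 87 probes the 3 OE+KD arrays all lay above the 3 SCR arrays, where 22.5% of all probes did. The RA-treated SCR arrays entered the rule as the low side, which favours a positive difference. Against SCR cells without RA, OE+KD was higher by a median of 0.47 log2, with 92 of 96 above 0. A scaling by array medians moved all probes to -0.16 log2 in that comparison, and the 96 to 0.30. In that comparison OE+KD and RA differ together. The rule's RA limit also tied these SCR arrays to the RA-treated ones, so the comparison is not free of the choice either.

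KD minus SCR and OE minus SCR add up to a median of 1.14 log2, and OE+KD minus SCR was under that sum at all 96 probes. The rule had set both terms of the sum high. It lay above both single differences at 23 probes, between them at 31 and below both at 42. All 3 differences share the SCR arrays. OE+KD minus KD had a median of -0.03 log2, with 38 probes above 0 and 58 below. At 6 probes the OE+KD arrays lay wholly above the KD arrays and at 25 wholly below, where 13.8% and 13.2% of all probes did. OE+KD minus OE had a median of -0.05 log2, with arrays wholly above at 2 probes and wholly below at 21, where 12.9% and 13.4% of all probes did. The rule chose KD and OE as high sides, which favours negative differences here. With a scaling by array medians the medians were -0.08 against KD and -0.18 against OE. That scaling moved the median of all probes to -0.02 and -0.10 in these comparisons.

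**Figure D4:**
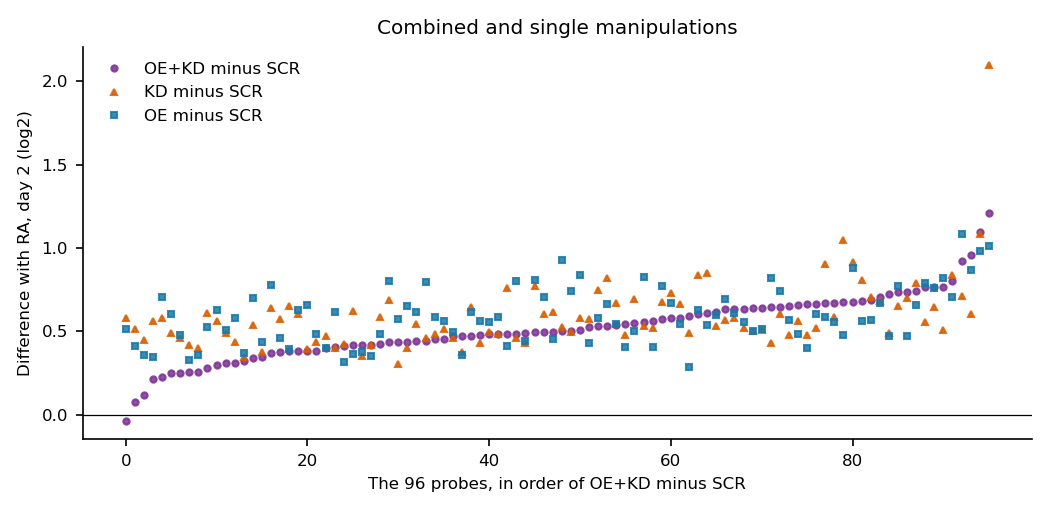
The 96 probes in order of OE+KD minus SCR (circles), with KD minus SCR (triangles) and OE minus SCR (squares) of the same probes, all with RA on day 2, in log2 units. OE+KD runs from -0.04 to 1.21, and 1 probe lies below 0. The triangle at 2.10 is ILMN_16098.

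Among the OE arrays with RA, replicate 2 stood apart, with a residual SD of 0.226 log2 against 0.162 and 0.138 on the other two. The median SD of the 96 probes was 0.14 in that group and 0.09 in SCR with RA. Without that array the median of OE minus SCR was 0.56, and that of OE+KD minus OE was -0.03, with 44 probes above 0 and 52 below. KD minus OE had a median of -0.01 with all arrays and 0.05 without that array.

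ILMN_16098 had the largest KD difference. It was at 10.34, 10.29 and 10.40 on the OE+KD arrays, 11.40, 11.06 and 11.25 on the KD arrays, 9.96, 10.50 and 9.98 on the OE arrays and 9.11, 9.24 and 9.06 on the SCR arrays with RA. The KD arrays were highest, and neither the OE+KD nor the OE arrays overlapped the KD or the SCR arrays. KD minus SCR was 2.10 log2, OE+KD minus SCR 1.21 and OE minus SCR 1.01, or 0.84 without OE replicate 2. OE+KD minus KD was -0.89, the lowest of the 96. On day 4 without RA it was at 9.51, 9.31 and 9.33 in OE and 8.30, 8.28 and 8.50 in SCR. The probe was thus 1.02 log2 higher in OE than in SCR (SE 0.122, limma adjusted p = 1.92e-07). It was also the probe that stood lowest on day 4 relative to day 2 in SCR cells, by -0.72 log2.

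ILMN_2137 stood about equally far above SCR under each manipulation with RA. It was at 11.41, 11.73 and 11.39 on the OE+KD arrays, 11.50, 11.63 and 11.36 on the KD arrays, 11.42, 11.52 and 11.25 on the OE arrays and 10.34, 10.46 and 10.44 on the SCR arrays. The 3 manipulated groups overlapped one another and lay about 1 log2 above SCR. On day 4 without RA it averaged 10.93 ± 0.14 in OE and 10.33 ± 0.04 in SCR (SD, n = 3 each). The probe was thus 0.60 log2 higher in OE than in SCR (limma adjusted p = 1.38e-05). Its day 2 means without RA were 11.04 in OE and 10.43 in SCR.

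ILMN_15635 had the largest OE difference with RA, and the array that stood apart bears on it. It was at 11.06, 11.82 and 11.18 on the OE arrays and 10.25, 10.50 and 10.07 on the SCR arrays with RA. The difference was 1.08 log2, or 0.85 without OE replicate 2. On day 4 without RA it averaged 11.60 ± 0.38 in OE and 10.64 ± 0.12 in SCR (SD, n = 3 each). The probe was thus 0.96 log2 higher in OE than in SCR (limma adjusted p = 5.9e-05). Those OE arrays stood at 11.43, 12.03 and 11.33, so replicate 2 was the highest there as well.

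ILMN_23162 was the only one of the 96 whose OE+KD minus SCR difference was below 0. It was at 7.65, 7.70 and 7.66 on the OE+KD arrays, 8.28, 8.15 and 8.44 on the KD arrays, 8.26, 8.33 and 8.09 on the OE arrays and 7.67, 7.71 and 7.75 on the SCR arrays. The OE+KD arrays overlapped the SCR arrays and lay wholly below both single manipulations. OE+KD minus SCR was -0.04 log2, OE+KD minus KD -0.62 and OE+KD minus OE -0.55. On day 4 without RA it was at 8.25, 8.62 and 8.25 in OE and 7.87, 7.57 and 7.76 in SCR, a difference of 0.64 log2 (limma adjusted p = 1.48e-05).

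ILMN_1860 had the next lowest OE+KD minus SCR difference, 0.08 log2, and its OE difference rests on the array that stood apart. It was at 9.78, 10.12 and 9.98 on the OE+KD arrays and 10.04, 10.91 and 9.95 on the OE arrays and 9.75, 9.93 and 9.98 on the SCR arrays with RA, which overlapped. Its OE difference was 0.41 log2, and 0.11 without OE replicate 2.

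**Figure D5:**
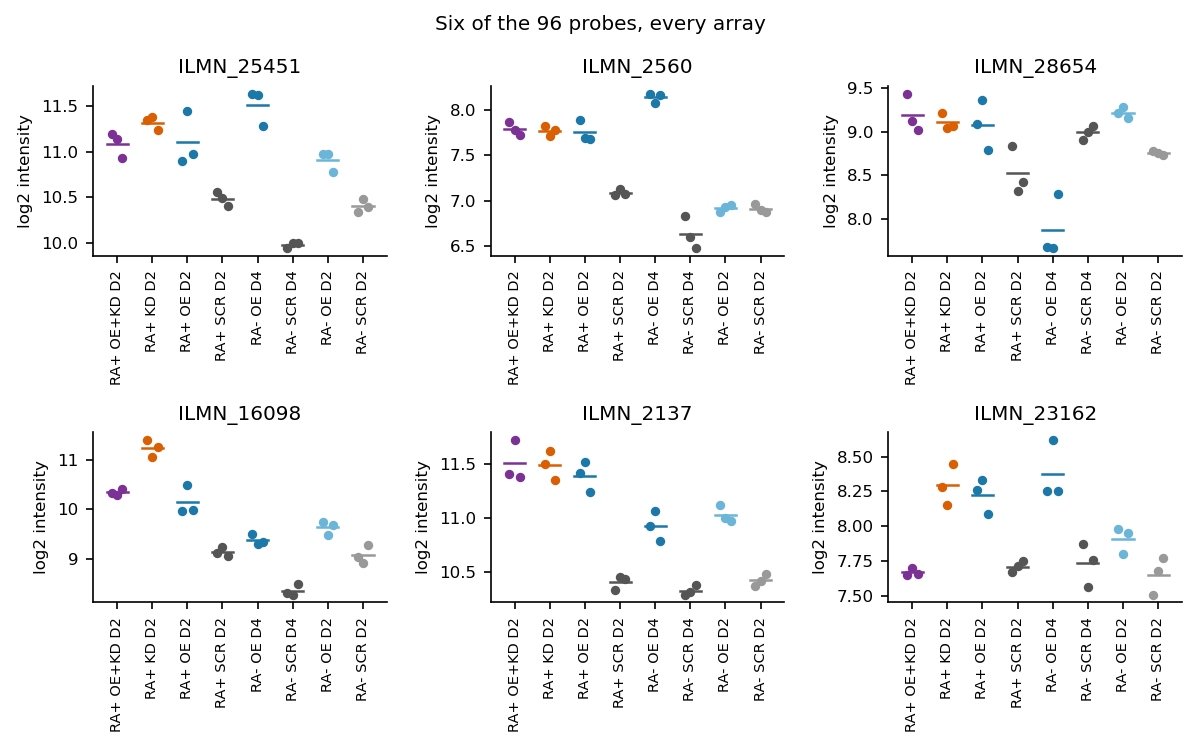
Log2 intensity of ILMN_25451, ILMN_2560, ILMN_28654, ILMN_16098, ILMN_2137 and ILMN_23162 on every array (dots) with group means (lines), by group. The vertical axes do not start at 0 and differ between panels. ILMN_28654 is lower in OE than in SCR on day 4 without RA alone, and ILMN_23162 is level with SCR in OE+KD.

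The day 2 difference between OE and SCR without RA, which the rule capped, was lowest at ILMN_138322, with -0.07 log2, and at ILMN_29805, with -0.01. ILMN_138322 was at 9.06, 9.01 and 8.84 on the OE arrays and 8.97, 9.07 and 9.10 on the SCR arrays, which overlapped. On day 4 without RA these probes differed by -0.03 and -0.02 log2 (limma adjusted p = 0.854 and 0.873). At the other end ILMN_29994 was 0.68 higher in OE than in SCR on day 2 and 0.72 higher on day 4 (limma adjusted p = 1.81e-05).

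Day 4 minus day 2 in SCR cells without RA had a median of 0.05 log2, or -0.01 with a scaling by array medians, with 53 probes above 0 and 43 below on the main scale. That scaling moved the median of all probes to -0.05 log2. The highest was ILMN_8503, with 10.53, 10.41 and 10.57 on day 4 and 9.76, 9.90 and 9.97 on day 2. Of the 96, 31 had day 4 arrays wholly above the day 2 arrays and 23 wholly below, where 18.9% and 19.5% of all probes did. The day 2 arrays of this comparison entered the rule.

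The probes most like the set were sought among the others over the 9 arrays whose differences the rule did not use (OE+KD, and OE and SCR on day 4). The 5 with the highest correlation with the mean of the 96 had r of 0.990 to 0.998. That mean was low on the SCR arrays and higher on the others, so a positive day 4 difference follows from this choice. ILMN_20483 had the highest and was 1.62 log2 higher in OE than in SCR on day 4, but its KD minus SCR was -0.55. ILMN_22953, next in order, had differences of 1.86 for OE+KD, 1.66 for KD and 2.14 for OE against SCR with RA, and of 1.52 for OE without RA on day 2, above the limit of 0.7.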

How the data were processed

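The scanner table deposited by the authors holds 1 linear intensity per probe and array, with 14.3% to 17.6% of values below 0 per array, so a background had been subtracted. Array means ran from 617.8 to 1134.2. The authors' second deposited table holds normalized intensity values with a lowest value of 20, and the sources used here do not say how they were normalized. The third gives log2 fold changes, per the file headers. Its OE & KD and KD columns name SCR without RA as reference, but over 6105 bright probes they correlated with differences against SCR with RA at r = 0.985 and 0.973, and against SCR without RA at 0.687 and 0.647.

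Scanner values were corrected with normexp (offset 50), which compresses differences of dim probes, then quantile normalized and log2 transformed (limma 3.58.1, R 4.3.3). A probe was tested when above its array's median on all 3 arrays of a group, which kept 10691 probes. One model of 8 group means was fitted to the 24 arrays (lmFit, eBayes, 16 residual degrees of freedom), with Benjamini-Hochberg adjustment over all probes tested. Summaries used Python 3.11.15, pandas 2.3.3 and NumPy 2.4.6, with matplotlib 3.10.9 for plots.

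The members, lists and tests were chosen with earlier results of these data known. Gene lists and promoter motifs could not be used without gene names. Probes were named by rule: for each comparison, at most the 2 highest and the 2 lowest of the 96, and the probes nearest each threshold. Arrays of one replicate number deviated together on day 4 (r of 0.133 to 0.264 across probes between OE and SCR), with numbers taken from the titles. On day 2 without RA r between OE and SCR was 0.216 to 0.438. Between SCR with and without RA it was 0.251 to 0.458, and between KD and OE with RA -0.082 to 0.085. The main model held no term for the replicate number. No pair of arrays held identical values. The number of arrays limits the precision.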

Additional observations from a re-analysis of the deposited data

Results flagged for a closer look

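At 4 of the 96 probes the effect of OE without RA ran in opposite directions on the 2 days, with the OE arrays wholly below the SCR arrays on day 4 and wholly above them on day 2. Of all probes tested, 166 of 10691 (1.55%) did the same, and 112 (1.05%) the reverse, which none of the 96 did. On day 2 without RA the OE arrays lay wholly above SCR at 87 of the 96 probes and wholly below at 0. Over all probes tested they did so at 2804 and 2620. The set thus held no probe at which the reverse could occur, and nothing is read from these shares. The difference between the days was not tested, because the rule used the day 2 values. OE minus SCR on day 4 was -1.12 log2 at ILMN_28654, -0.49 at ILMN_5056, -0.32 at ILMN_30199 and -0.27 at ILMN_10404. ILMN_30199 was at 7.41, 7.47 and 7.65 on the OE arrays and 7.67, 7.76 and 8.07 on the SCR arrays of day 4, and did not pass the test there (limma adjusted p = 0.0912). With RA on day 2 it stood at 8.44 ± 0.08 in OE+KD, 8.40 ± 0.07 in KD, 8.54 ± 0.54 in OE and 7.80 ± 0.11 in SCR cells (SD, n = 3 each).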

How the results depend on the processing

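The number of probes that OE raised on day 4 was 60 and lay between 50 (stricter filter on dim probes, which tested 78 of the 96) and 73 (median scaling) over the alternatives with all arrays, and between 53 and 62 when any 1 of the 6 day 4 arrays was left out. The calls either way numbered 55 to 65 in those 6 cases. The count lowered was 4, and it was 6 in the authors' normalized intensities, 3 with no filter or the stricter one, 2 with median scaling and 2 to 4 with any 1 array left out (2 without replicate 2 of OE or replicate 3 of SCR). With the replicate number as a block, 65 were raised, including all 60, and 4 lowered. The calls of ILMN_25451, ILMN_28654 and ILMN_5056 were then the same. For none of these alternatives is the share of all probes called given, so only the change in the counts is read. The median day 4 difference was 0.45 log2 without background correction and 0.57 with median scaling, in place of 0.41, and 0.38 to 0.40 with any 1 array left out. The median of OE+KD minus SCR was 0.50, and it was 0.60 without background correction, 0.41 with median scaling, 0.60 in the authors' normalized intensities, 0.53 with the stricter filter and 0.50 to 0.52 with any 1 array left out. Median scaling moved the median of all probes to -0.07 log2 in that comparison. ILMN_25451, ILMN_28654 and ILMN_5056 kept their day 4 direction and stayed called in every alternative run for them. ILMN_2560, which its day 4 level admitted to the set, kept its direction in every alternative that held it, and no call is read from it. The stricter filter left ILMN_2560 out. The rule found 94 probes with values raised to 20, 89 with no overlap required and 87 on the normexp values. Leaving out each array of the groups it uses, an alternative chosen after seeing the data, gave 91 to 115 probes, of which 81 to 92 were among the 96. A level step over the 5 groups whose differences the rule uses, also chosen after seeing the data, left 94 probes, with 58 raised and 4 lowered on day 4.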
